A study of Homo sapiens with 72 samples.

Results

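The genes described here are 31 human genes of cholesterol and fatty acid synthesis, with the proteins that control them and move sterol, measured by sequencing of polyadenylated RNA in HEK293 Flp In T-REx cells of 4 lines. They were taken by symbol, by function, from a count table of 19324 genes, and all 31 passed the filter on low counts that left 15470 genes for testing. The list held 7 enzymes of the mevalonate steps, 11 enzymes from squalene to cholesterol, 4 components of the SREBP control system, 7 enzymes of fatty acid synthesis and desaturation, and 2 proteins of sterol transport.

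HEK293 is a transformed human embryonic kidney line, and the Flp In T-REx form carries a site for targeted insertion of transgenes. The lines were unedited cells (WT), CSB knockout cells (CSB_KO) and a pair of lines labelled as STK19 knockouts (STK19_KO1 and STK19_KO2, called the STK19 lines). CSB, encoded by ERCC6, acts where RNA polymerase II stalls at DNA lesions, and STK19 has been placed in the same repair pathway. Each line had 6 conditions with 3 libraries each. The conditions were no treatment (0 h), the state 3 h after irradiation with ultraviolet light (UV), and UV-treated cultures labelled 4 h or 20 h with the solvent DMSO or with 3 µM VE-821, an inhibitor of the checkpoint kinase ATR (ATRi). The labels do not settle whether 4 h and 20 h run from irradiation or from treatment, and no UV dose was found in the sources used here. All groups after 0 h were irradiated, so a change from 0 h cannot be told apart from time in culture or, in the 4 h and 20 h groups, from the solvent. WT was the only unedited line and CSB_KO carries a single label, so a clone's own traits cannot be told apart from the knockout. Nothing in the labels says whether the 3 libraries of a group came from separate cultures, so the spread among them may be technical. Unless a fit of only the groups compared is named, each p-value and standard error rests on a spread estimated over all 24 groups. It is not the spread of the groups compared alone.

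Cells make cholesterol from acetyl-CoA through mevalonate, isoprenoid diphosphates and squalene, and make fatty acids from the same acetyl-CoA. Both routes are switched on by SREBP transcription factors, encoded by SREBF1 and SREBF2. SCAP carries these factors to the Golgi for cleavage when membrane sterol is low, and INSIG1 holds SCAP in the endoplasmic reticulum when sterol is high, while INSIG1 is itself an SREBP target. SREBP acts at promoters together with the factors NF-Y and Sp1.

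Promoter sequence from RefSeq (GRCh38.p14) was available for 27 of the 31 genes. Those of 5 genes are shown, 5′ to 3′ on the strand of the gene and ending before its start: SREBF2 as the only one of the 27 with the sterol response type motif, INSIG1, HMGCS1 and MSMO1 because their transcripts were lower at 3 h and 4 h in every line, and EBP because its transcript rose at 20 h in the edited lines. Capitals mark matches to TCACNCCAC (sterol response type), CCAAT (NF-Y type) and GGGCGG (Sp1 type) on either strand, so that a match on the other strand reads ATTGG or CCGCCC.
SREBF2 chr22:41832905-41833104 (+ strand): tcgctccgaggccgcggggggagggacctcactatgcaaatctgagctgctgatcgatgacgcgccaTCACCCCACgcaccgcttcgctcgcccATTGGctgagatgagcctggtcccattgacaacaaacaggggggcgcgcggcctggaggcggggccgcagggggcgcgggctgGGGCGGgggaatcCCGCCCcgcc
INSIG1 chr7:155297628-155297775 (+ strand): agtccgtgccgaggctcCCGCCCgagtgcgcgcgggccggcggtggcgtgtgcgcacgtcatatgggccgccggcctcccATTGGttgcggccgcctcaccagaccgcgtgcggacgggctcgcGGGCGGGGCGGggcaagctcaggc
HMGCS1 chr5:43313513-43313662 (- strand): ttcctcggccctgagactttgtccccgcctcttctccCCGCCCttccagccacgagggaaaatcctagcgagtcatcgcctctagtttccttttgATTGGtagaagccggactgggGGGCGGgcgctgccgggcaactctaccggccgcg
MSMO1 chr4:165327467-165327666 (+ strand): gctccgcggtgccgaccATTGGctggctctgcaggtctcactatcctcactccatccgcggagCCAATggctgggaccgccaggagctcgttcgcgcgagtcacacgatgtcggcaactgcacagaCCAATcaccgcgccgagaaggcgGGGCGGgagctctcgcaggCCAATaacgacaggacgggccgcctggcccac
EBP chrX:48521599-48521798 (+ strand): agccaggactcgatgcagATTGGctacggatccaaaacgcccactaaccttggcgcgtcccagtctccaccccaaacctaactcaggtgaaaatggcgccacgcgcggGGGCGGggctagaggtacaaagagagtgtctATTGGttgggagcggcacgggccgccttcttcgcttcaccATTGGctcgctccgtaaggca
Both strands were searched from 250 bases before to 50 bases after each start, and a gene counted if any of its starts had a match. CCAAT was present for 20 of the 27 genes (74.1%) against 43.1% of the 12132 tested genes with an entry. HMGCS1, DHCR7 and FADS2 had it at 1 of 2 starts, and IDI1 and ACACA at 2 of 3. GGGCGG was present in 26 of 27 (96.3%) against 75.2%, with NSDHL as the exception. The spelling TCACNCCAC occurred in 1 of 27 (3.7%) against 1.52%, and the E-box CACGTG in 4 of 27 (14.8%) against 12.3%. MSMO1 had 4 CCAAT matches in the stretch shown and EBP had 3, on the strands marked above. These are letter matches only, and SREBF1, SCAP, ELOVL6, FADS1, NPC1, PMVK and CYP51A1 held no CCAAT in this window.

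Library totals ran from 36.5 M to 212.9 M counts (median 56.3 M), and the lowest count of any of the 31 genes in any library was 124. ERCC6, the check of the CSB_KO label, stood at 6.4 to 15.6 CPM (counts scaled to a common library size of 1e6) in CSB_KO libraries and at 13.5 to 44.8 CPM in the others, with a log2 fold change at 0 h of -1.77 ± 0.08 (standard error, n = 3 per group, edgeR quasi-likelihood test, adjusted p = 1.11e-27). STK19 transcript gave no such check: it stood at 16.8 to 44.2 CPM in STK19_KO1, 16.4 to 45.6 CPM in STK19_KO2 and 17.8 to 53.8 CPM in WT. At 0 h its log2 fold change against WT was -0.12 ± 0.08 in STK19_KO1 and -0.15 ± 0.07 in STK19_KO2, neither called (edgeR, adjusted p = 0.189 and 0.0891), so the knockout in these lines rests on the labels, and a count per gene does not show a small edit. Of markers known in HEK293 cells, KRT8 stood at 72.2 to 358 CPM and VIM at 660 to 1420 CPM, while NEFM (0.118 to 2.02 CPM) and PAX2 (0.435 to 5.7 CPM) were low. Blood markers summed to 0 to 0.716 CPM, squamous epithelium markers to 0 to 0.38 and hepatocyte and adipocyte markers to 0.316 to 3.99. Fibroblast markers summed to 4.31 to 20 CPM, with COL1A1 at 3.08 to 18.2 CPM. A set of 5 libraries lay apart from both other libraries of their group: replicate 1 of WT at 0 h, 3 h and 4 h with DMSO, STK19_KO1 at 3 h replicate 3 and STK19_KO1 at 4 h with ATRi replicate 1. Without them the count of genes called in the comparisons they touch was 20 to 26 at 0 h, 3 h, 4 h DMSO and 20 h and in the comparison of 20 h changes between lines, against 20 to 24 with all libraries, and the count for ATRi at 4 h is given with that comparison.

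In untreated WT cells 3 genes of fatty acid synthesis stood highest. Scaled to exonic length, FASN (fatty acid synthase) was at 209.6 CPM per kb, SCD (stearoyl-CoA desaturase) at 150.5 and ACLY (ATP citrate lyase, the source of cytosolic acetyl-CoA) at 142.3, on means of 3 libraries. The highest of the cholesterol enzymes were SQLE (squalene epoxidase, a rate-limiting step) at 56.45 and HMGCS1 (HMG-CoA synthase) at 55.89 CPM per kb. The lowest levels per length were HSD17B7 at 2.683, MVK at 3.584 and NPC1 at 4.351 CPM per kb. HSD17B7 and FDPS have near-identical copies in the genome, and FADS1 lies within the span of FADS2, so their counts are uncertain to the extent that reads were shared.

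Untreated edited lines were compared with untreated WT to ask how the edited lines differed before any irradiation. Most of the 31 genes were lower. Genes with an adjusted p below 0.05 (Benjamini-Hochberg, across the 15470 genes tested) count as called, and background percentages are the shares of all tested genes called lower and higher by that same rule. CSB_KO had 21 lower and 1 higher (background 15.6% and 19.1%), STK19_KO1 had 21 lower and 3 higher (background 19.2% and 29.4%) and STK19_KO2 had 19 lower and 3 higher (background 20.7% and 26.5%). Of the 22, 24 and 22 calls, 4, 4 and 2 were lost without at least 1 library. The median log2 fold change of the 31 genes was -0.27, -0.32 and -0.30, against 0.00, 0.05 and 0.03 for all tested genes. The 3 comparisons share the WT libraries, so they are given side by side and not as independent evidence.

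Among enzymes of the sterol route SQLE had the largest mean difference over the 3 lines. SQLE stood at 251, 239.7 and 238 CPM in the WT libraries, 134, 132 and 133 in CSB_KO, 125, 119.8 and 125 for STK19_KO1 and 114, 127 and 121 for STK19_KO2. Every edited library was thus below every WT library, at log2 fold changes of -0.87 ± 0.04, -0.98 ± 0.05 and -1.01 ± 0.05 (± standard error, n = 3 per group, edgeR quasi-likelihood test, adjusted p = 2.75e-24, 3.24e-27 and 8.6e-28). MSMO1, a methylsterol oxidase of the route, was at 65.3, 54.2 and 54.6 CPM in WT, with 33.9, 34.1 and 31.5 in CSB_KO, 31.2, 32.9 and 35.2 for STK19_KO1 and 36.6, 34.7 and 33.1 for STK19_KO2. Its log2 fold changes were -0.80 ± 0.10, -0.81 ± 0.10 and -0.74 ± 0.10 (edgeR, adjusted p = 1.81e-09, 7.99e-10 and 8.15e-09), with no overlap between edited and WT libraries. LSS, the lanosterol synthase, had a different pattern: 65.2, 65.8 and 65.6 CPM in STK19_KO2 but 139, 142 and 137 in STK19_KO1 and 123, 156 and 155 in WT. It was lower in STK19_KO2 (log2 fold change -1.14 ± 0.08, edgeR, adjusted p = 4.72e-19), while STK19_KO1 differed from WT by -0.06 ± 0.08 and was not called. A direct test between the STK19 lines was not run.

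Of the 7 mevalonate enzymes, 4, 5 and 4 were lower in CSB_KO, STK19_KO1 and STK19_KO2 and none was higher. The MVD call in STK19_KO1 was lost without WT replicate 2 or 3 (log2 fold change -0.22). IDI1, the isopentenyl diphosphate isomerase, had the largest mean difference over the 3 lines, while in STK19_KO2 ACAT2, the cytosolic acetyl-CoA acetyltransferase, was lower still (-0.80). IDI1 stood at 210.4, 175 and 173 CPM in WT, 111, 110.3 and 100.4 in CSB_KO, 119, 118 and 123 for STK19_KO1 and 132, 127 and 122 for STK19_KO2. Edited and WT libraries did not overlap, and the log2 fold changes were -0.79 ± 0.08, -0.63 ± 0.08 and -0.55 ± 0.08 (edgeR, adjusted p = 1.18e-11, 3.99e-09 and 1.09e-07). MVK and PMVK, the kinases that follow mevalonate, were not called in any of the 3 lines, at log2 fold changes from -0.20 to 0.04.

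Fatty acid enzymes were lower in 6, 7 and 5 of 7. The FASN call in STK19_KO1 was lost without WT replicate 2 or 3 (log2 fold change -0.37 to -0.36). The ELOVL6 call in CSB_KO was lost without WT replicate 1 (-0.21). The largest differences were in desaturases of polyunsaturated fatty acids, FADS1 and FADS2 in STK19_KO1 and FADS2 in STK19_KO2, while in CSB_KO FASN was lowest (-0.60). FADS2 stood at 111, 128 and 128 CPM in WT, 96.9, 101 and 98.2 in CSB_KO, 55.5, 56.7 and 55.2 for STK19_KO1 and 59.7, 54.1 and 57.9 for STK19_KO2. Its log2 fold change was -0.31 ± 0.07 in CSB_KO, -1.13 ± 0.07 for STK19_KO1 and -1.10 ± 0.07 for STK19_KO2 (edgeR, adjusted p = 0.000165, 1.5e-21 and 5.61e-21), and no edited library reached the lowest WT library. FADS1, its neighbour, stood at 74.03, 69.8 and 70.4 CPM in WT, 61.04, 57.3 and 57.9 in CSB_KO, 27.6, 23.7 and 23.7 for STK19_KO1 and 50.6, 49.4 and 50.98 for STK19_KO2. The lowest FADS1 libraries were those of STK19_KO1, at -1.52 ± 0.06 on the log2 scale (edgeR, adjusted p = 1.05e-29) beside -0.28 in CSB_KO and -0.51 in STK19_KO2. ACACA, the acetyl-CoA carboxylase, went against the rest in CSB_KO and STK19_KO2, where it was higher by 0.35 and 0.30 on the log2 scale (edgeR, adjusted p = 8.1e-06 and 5.61e-05). SC5D, the sterol desaturase, was also higher in STK19_KO2, at 0.36.

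In the control system, INSIG1 was lower in each edited line, at 168 ± 1.73 CPM (SD, n = 3) in WT against 105 ± 5.84, 121 ± 5.47 and 103 ± 2.72 in CSB_KO, STK19_KO1 and STK19_KO2. SREBF2, the main sterol regulator, was lower in STK19_KO1 (log2 fold change -0.71 ± 0.06, edgeR, adjusted p = 1.79e-14) and CSB_KO (-0.29 ± 0.06) and was not called in STK19_KO2 (-0.08 ± 0.06). SCAP and SREBF1 were higher in STK19_KO1, by 0.72 ± 0.09 and 0.42 ± 0.12, and were not called in the other 2 lines, where they lay between -0.06 and 0.24. The SREBF1 call was lost without WT replicate 1 (log2 fold change 0.26, edgeR, adjusted p = 0.0666). NPC1, which exports cholesterol from lysosomes, was higher in STK19_KO1 by 0.80 ± 0.05 and in STK19_KO2 by 0.67 ± 0.05, and in CSB_KO it differed by 0.13 ± 0.05 without a call.

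**Figure D1:**
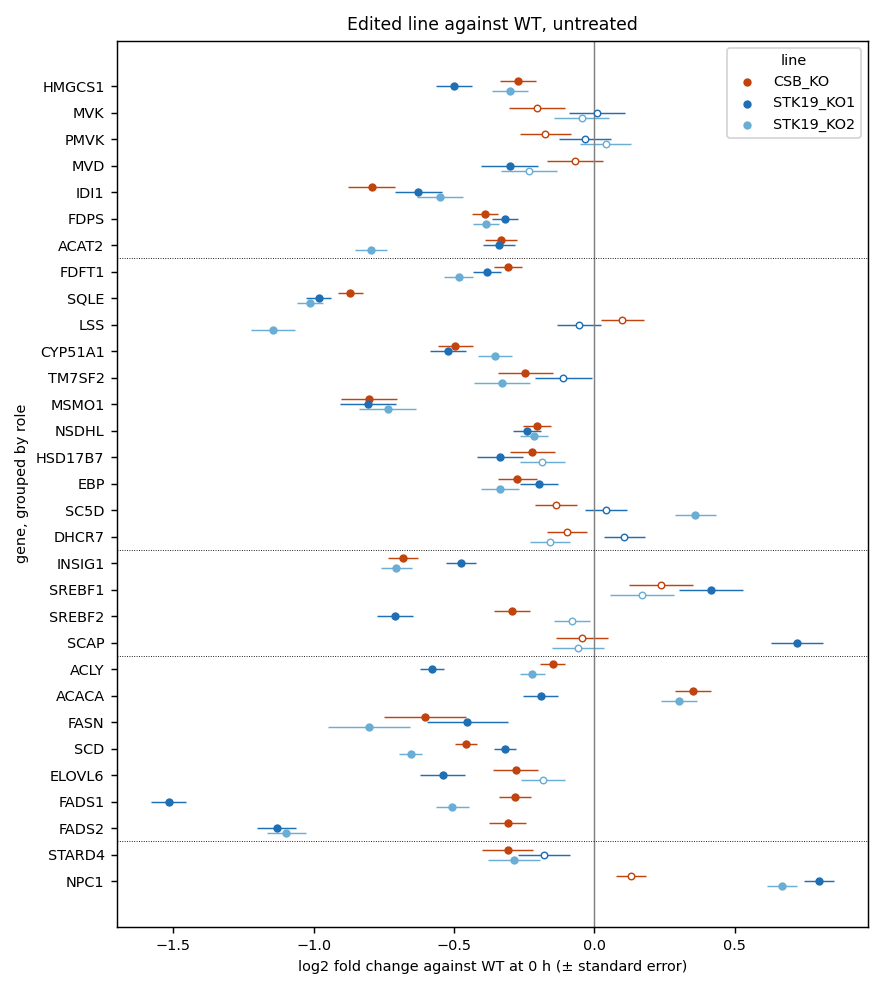
Log2 fold change of each of the 31 genes in untreated edited lines against untreated WT (x axis, bars are standard errors, n = 3 libraries per group), grouped by role. Filled points were called at adjusted p under 0.05 and open points were not. SQLE, MSMO1 and IDI1 lie left of 0 in all 3 lines, and NPC1 lies right of 0 in the STK19 lines.

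Cells at 3 h after UV were compared with untreated cells of the same line. Counts were scaled to library size, so rises and falls here and below are relative to the other genes of a library. The genes moved in both directions, also within a route. WT had 9 lower and 12 higher (background 28.8% and 33.5%), CSB_KO had 8 lower and 14 higher (background 29.3% and 32%), STK19_KO1 had 11 lower and 9 higher (background 30.6% and 29.9%) and STK19_KO2 had 11 lower and 9 higher (background 28.5% and 29.1%). These shares of 31 were near the background, the widest gap being the 14 higher in CSB_KO, with medians of 0.01 and 0.13 in WT and CSB_KO and -0.03 and -0.04 in STK19_KO1 and STK19_KO2. Across the lines, which have separate untreated libraries, 6 genes were lower in all 4: INSIG1, ELOVL6, HMGCS1, SQLE, MSMO1 and ACACA. Another 8 were higher in all 4: MVD, IDI1, FDPS and ACAT2 of the mevalonate steps, TM7SF2, EBP and SC5D of the sterol steps, and FADS1. The share of all tested genes called the same way in all 4 lines was not set beside these counts. Whether they exceed the general response is therefore not known, here and in the later comparisons. FASN, SCAP, LSS, CYP51A1 and NSDHL were not called in any line. In a fit of the WT 3 h and 0 h groups alone 11 of the 31 were called in place of 21, and MVD, IDI1, SC5D, TM7SF2 and MSMO1 were among those lost there. The share of all tested genes called in that fit was not set beside this count. Without replicate 1 of WT at 3 h the WT log2 fold changes of IDI1 and SC5D were 0.22 and 0.27 in place of 0.46 and 0.43. The FADS1 call in STK19_KO2 was lost without 3 h replicate 3 (log2 fold change 0.14).

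At 4 h with DMSO the picture was the same for these 14 genes. WT had 10 lower and 11 higher (background 31.2% and 34.9%), CSB_KO had 7 lower and 14 higher (background 30.2% and 33.5%), STK19_KO1 had 10 lower and 9 higher (background 29.9% and 27.8%) and STK19_KO2 had 10 lower and 8 higher (background 29.7% and 31.6%). The same 6 genes were lower in all 4 lines and the same 8 were higher in all 4. The IDI1 call in WT was lost without WT 0 h replicate 2 or 3 or 4 h DMSO replicate 1 (log2 fold change 0.16 to 0.18), and the ACAT2 call in STK19_KO2 without 0 h replicate 1 or 4 h DMSO replicate 2 or 3 (0.13 to 0.14). The 3 h, 4 h and 20 h comparisons of a line share its untreated libraries.

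INSIG1, the sterol-regulated anchor of SCAP, had the largest mean fall at 3 h and 4 h. In WT it went from 169, 169 and 166 CPM at 0 h to 99.7, 81.4 and 79.3 at 3 h and 59.4, 59.8 and 58.6 at 4 h. In CSB_KO it went from 109, 107 and 98.2 to 47.9, 48.01 and 46.9 and 43.8, 44.3 and 45.7 CPM. No library after irradiation reached the lowest untreated library of its line. STK19_KO1 went from 115, 121 and 126 to 38.6, 39.4 and 41.8 and 38.6, 36.8 and 38.3 CPM. STK19_KO2 went from 105, 104 and 100.2 to 39.5, 39.3 and 40.5 and 38.3, 38.4 and 38.2 CPM. The log2 fold changes at 3 h were -0.96 ± 0.05 in WT, -1.14 ± 0.06 in CSB_KO, -1.60 ± 0.06 for STK19_KO1 and -1.37 ± 0.06 for STK19_KO2 (edgeR, largest adjusted p = 2.28e-23). By 4 h they were -1.51, -1.23, -1.67 and -1.43.

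HMGCS1, the entry enzyme of the mevalonate route, fell in each line. WT libraries went from 289, 243 and 256 CPM at 0 h to 200.2, 159 and 159 at 3 h and 158, 139 and 132 at 4 h, and CSB_KO from 216, 215 and 222 to 158, 150.01 and 148 and 149, 142 and 138. STK19_KO1 went from 186, 182 and 189 to 108, 103 and 97.9 and 111, 101 and 108, and STK19_KO2 from 218, 210.2 and 212 to 113, 109.6 and 112 and 115, 107 and 108. The untreated and irradiated libraries did not overlap in any line, and at 3 h the log2 fold changes were -0.61 ± 0.06, -0.52 ± 0.06, -0.85 ± 0.07 and -0.94 ± 0.06 (edgeR, largest adjusted p = 2.65e-10). Without replicate 1 of WT at 3 h, which was high for this gene, the WT value was -0.73. At 4 h the values ranged from -0.96 in STK19_KO2 to -0.61 in CSB_KO.

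SQLE fell from the untreated levels given above to 171, 152 and 151 CPM at 3 h and 125, 118 and 115 at 4 h in WT. In CSB_KO it was at 83.5, 82.9 and 84.7 and 78.8, 79.6 and 79.1 CPM. The STK19 lines had 77.3, 70.2 and 67.5 and 71.1, 69.5 and 70.7 CPM in STK19_KO1, and 71.8, 72.8 and 71.9 and 71.6, 69.9 and 67.6 in STK19_KO2. Its log2 fold change at 3 h was -0.62 ± 0.04 in WT, -0.67 ± 0.05 in CSB_KO, -0.78 ± 0.05 for STK19_KO1 and -0.74 ± 0.05 for STK19_KO2 (edgeR, largest adjusted p = 4.4e-19), and no group overlapped with its untreated group. MSMO1 also fell, at log2 fold changes of -0.37, -0.50, -0.29 and -0.44. Without replicate 1 of WT at 3 h the WT value was -0.63. Its STK19_KO1 call was lost without STK19_KO1 0 h replicate 3 or 3 h replicate 2 (adjusted p = 0.104 and 0.106, edgeR).

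ELOVL6, the elongase that extends palmitate, fell most among fatty acid enzymes. It went from 51.999, 45.8 and 44.7 CPM to 28.8, 23.4 and 21.9 at 3 h and 20.2, 17.7 and 17.5 at 4 h in WT, and from 39.6, 39.3 and 38.4 to 20.2, 19.3 and 20.04 and 20.2, 16.4 and 16.2 in CSB_KO. STK19_KO1 went from 33.2, 32.3 and 32.4 to 15.5, 13.4 and 13.8 and 15.9, 12.2 and 12.9, and STK19_KO2 from 42.8, 40.1 and 42.5 to 18.6, 17.98 and 16.9 and 15.4, 15.99 and 15.1. All irradiated libraries lay below all untreated libraries of the same line. The log2 fold changes at 3 h were -0.95 ± 0.08, -0.98 ± 0.08, -1.20 ± 0.09 and -1.24 ± 0.08 in WT, CSB_KO, STK19_KO1 and STK19_KO2 (edgeR, largest adjusted p = 8.14e-16). FASN, the synthase upstream of it, changed by -0.05 to 0.21 and was not called. Its standard error, 0.145 in each line, was larger than that of ELOVL6, so the missing call does not show that FASN was unchanged.

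TM7SF2, a sterol reductase, rose. Its libraries went from 15.7, 20.3 and 18.6 CPM to 19.1, 24.8 and 25.8 and 21.5, 25.5 and 28.8 at 3 h and 4 h in WT, and from 15.03, 14.8 and 16.4 to 21.9, 25.7 and 23.6 and 22.3, 23.5 and 25.03 in CSB_KO. In STK19_KO1 they went from 15.6, 18.2 and 16.9 to 26.5, 29.05 and 31.3 and 24.9, 29.2 and 29.2, and in STK19_KO2 from 14.4, 15.2 and 14 to 23.2, 23.6 and 23.3 and 22.5, 23.1 and 26.2. The 3 h and 0 h libraries overlapped in WT and did not in the edited lines, and the log2 fold changes at 3 h were 0.35 ± 0.10, 0.63 ± 0.10, 0.78 ± 0.10 and 0.69 ± 0.10 (edgeR, adjusted p = 0.00148, 1.55e-07, 6.46e-10 and 1.39e-08). The WT call was lost in a fit of those groups alone (adjusted p = 0.145, edgeR). MVD, which makes isopentenyl diphosphate, rose by 0.41 to 0.67 at 3 h.

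The regulators other than INSIG1 moved little at 3 h. SREBF1 was called lower in WT, STK19_KO1 and STK19_KO2, at -0.29, -0.33 and -0.26, and was at -0.11 in CSB_KO without a call. Each of these calls was lost when 1 library was left out: WT 0 h replicate 2 or 3 or WT 3 h replicate 1 (log2 fold change -0.21 to -0.08), STK19_KO1 0 h replicate 2 or 3 h replicate 1 (-0.28 to -0.25), and any 1 of the 6 libraries in STK19_KO2 (-0.29 to -0.24). Without WT 0 h replicate 1 or WT 3 h replicate 3 the WT value of SREBF1 was -0.45 or -0.47. SREBF2 was called in CSB_KO (0.15), a call lost without any 1 of the CSB_KO 0 h libraries or 3 h replicate 2 (log2 fold change 0.10 to 0.15), and lay between -0.14 and 0.01 in the other lines. SCAP lay between -0.14 and -0.01.

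**Figure D2:**
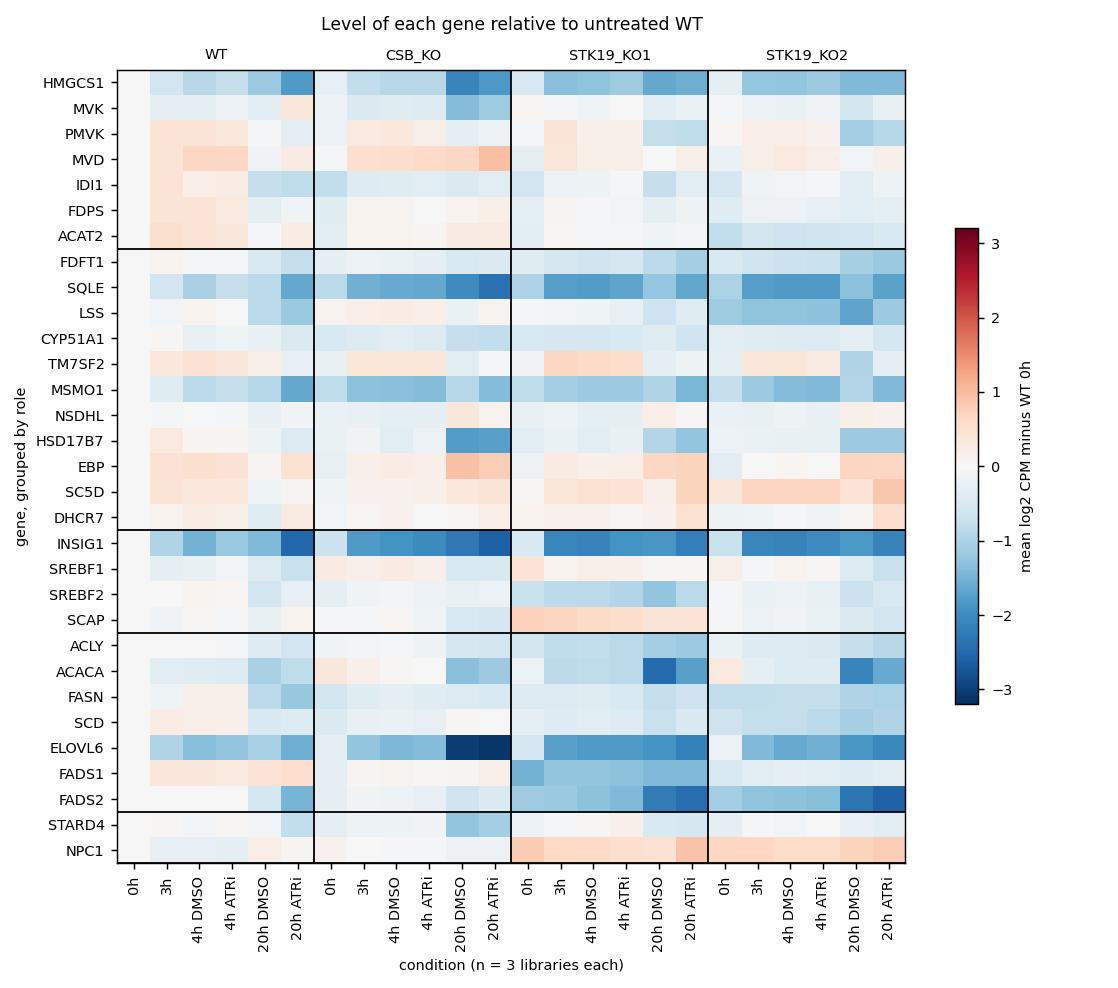
Mean log2 CPM of each gene (rows, by role) in each of the 24 groups (columns, n = 3 libraries each) minus its mean in untreated WT, with blue for lower and red for higher. INSIG1, HMGCS1, SQLE and ELOVL6 are lower after irradiation than at 0 h in each line. In the edited lines they were already below untreated WT at 0 h. EBP is highest at 20 h in the edited lines.

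By 20 h with DMSO most of the 31 genes were below the untreated level in WT and the STK19 lines. WT had 21 lower and 2 higher (background 25.4% and 29.9%), STK19_KO1 had 19 lower and 4 higher (background 37% and 32%) and STK19_KO2 had 17 lower and 5 higher (background 37.8% and 33.8%). In STK19_KO1 the split was 18 lower and 7 higher with RLE scaling, 18 and 8 with no filter and 19 and 7 in DESeq2. CSB_KO, in which the largest share of all genes had moved, had 16 lower and 10 higher (background 40.5% and 38.3%). Its shares of 31, 51.6% lower and 32.3% higher, lay nearer the background than in the other lines. Of its mevalonate enzymes 4 were higher and 2 lower, with a median of 0.34. The medians were -0.38 in WT, -0.21 in CSB_KO, -0.32 for STK19_KO1 and -0.41 for STK19_KO2, against medians of all genes between -0.02 and 0.05. Lower in all 4 lines were 12 genes: HMGCS1, MVK, FDFT1, SQLE, LSS, INSIG1, SREBF1, SCAP, ACLY, ACACA, ELOVL6 and FADS2. None was higher in all 4, and IDI1, FDPS, NSDHL, DHCR7, SCD and NPC1 were called lower in some lines and higher in others. The DHCR7 call higher in CSB_KO was lost without 0 h replicate 1 or 2 or 20 h replicate 2 or 3 (0.13 to 0.16). That in STK19_KO2 was lost without 0 h replicate 1 (0.18), and its IDI1 call without 0 h replicate 3 or 20 h replicate 1 or 2. The NPC1 call higher in WT (0.20) was lost in a fit of those groups alone (edgeR, adjusted p = 0.0568). As at 3 h, no share of all tested genes stands beside these counts over 4 lines.

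ACACA, which commits acetyl-CoA to fatty acids, fell from 134, 125 and 132 to 67.5, 60.7 and 62.3 CPM in WT and from 166, 168 and 165 to 51.6, 50.4 and 52.2 in CSB_KO. It fell from 118, 112 and 112 to 24.2, 24.7 and 21.8 CPM in STK19_KO1 and from 166, 154 and 162 to 28.2, 30.9 and 31.6 in STK19_KO2. No groups overlapped, and the log2 fold changes were -1.04 ± 0.06, -1.69 ± 0.07, -2.28 ± 0.07 and -2.41 ± 0.07 (edgeR, largest adjusted p = 1.99e-21). ELOVL6 reached 23.5, 21.8 and 24.1 CPM in WT, 6.91, 4.83 and 5.83 in CSB_KO, 13.1, 12.8 and 12.7 for STK19_KO1 and 12.9, 12.7 and 13.6 for STK19_KO2. The lowest were the CSB_KO libraries, at a log2 fold change of -2.76 ± 0.09 beside -1.04 ± 0.08 in WT, -1.34 ± 0.08 for STK19_KO1 and -1.68 ± 0.08 for STK19_KO2 (edgeR, largest adjusted p = 4.91e-17). FADS1 was higher at 20 h in WT (0.45) and CSB_KO (0.36), against the direction of the other fatty acid enzymes in WT.

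INSIG1 stood at 63.4, 61.8 and 62.7 CPM in WT at 20 h, 37.1, 32.7 and 33.6 in CSB_KO, 45.7, 45.5 and 48.2 for STK19_KO1 and 46.2, 48.9 and 47.2 for STK19_KO2. Every one of these libraries was below the untreated ones of its line, at log2 fold changes of -1.43 ± 0.06, -1.61 ± 0.06, -1.38 ± 0.06 and -1.12 ± 0.06 (edgeR, largest adjusted p = 8.88e-27). HMGCS1 stood at 121, 111 and 117 CPM in WT, 63.4, 58.1 and 61.2 in CSB_KO, 85.9, 84.4 and 84.01 for STK19_KO1 and 101, 98.8 and 95.7 for STK19_KO2. Its log2 fold change was -1.84 ± 0.07 in CSB_KO and -1.17, -1.13 and -1.12 in WT, STK19_KO1 and STK19_KO2, with no overlap (edgeR, largest adjusted p = 2.23e-23). SREBF1 fell, at log2 fold changes of -0.37 to -0.74, and SREBF2 fell, at -0.60, -0.55 and -0.62 in WT, STK19_KO1 and STK19_KO2, while CSB_KO was at 0.06 ± 0.06 without a call. SCAP was lower, at -0.24 to -0.45, and its WT call was lost without WT 0 h replicate 2 or 3 or 20 h DMSO replicate 1 (log2 fold change -0.20 to -0.18).

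The sterol steps split at 20 h. HSD17B7, a ketosteroid reductase of the late route, went from 12.4, 13.8 and 12.3 to 10.9, 11.3 and 11.9 CPM in WT and from 11.02, 11.4 and 10.4 to 3.52, 3.79 and 3.78 in CSB_KO. In STK19_KO1 it went from 10.6, 10.1 and 9.78 to 7.02, 6.51 and 6.54, and in STK19_KO2 from 11.3, 11.1 and 11.4 to 5.76, 5.61 and 5.92. It fell in the edited lines, at log2 fold changes of -1.57 ± 0.09, -0.60 ± 0.08 and -0.97 ± 0.08 (edgeR, largest adjusted p = 6.8e-09), and WT, at -0.17 ± 0.08, was not called. EBP, the sterol isomerase, moved the other way. Its libraries at 0 h and 20 h were 107, 115 and 109 and 119, 119.6 and 114 CPM in WT, and 93.3, 90.5 and 89.1 and 217, 208 and 211 in CSB_KO. They were 92.5, 99.6 and 95.9 and 179, 168 and 177 CPM in STK19_KO1, and 86.9, 86.2 and 88.5 and 178, 173 and 180.1 in STK19_KO2. EBP rose in the edited lines by 1.22 ± 0.07, 0.87 ± 0.07 and 1.02 ± 0.07 on the log2 scale (edgeR, largest adjusted p = 1.99e-17) and stood at 0.09 ± 0.07 in WT, without a call. SQLE fell in each line but by less in the STK19 lines, at -0.26 and -0.29, than in WT at -0.86, a difference tested next.

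**Figure D3:**
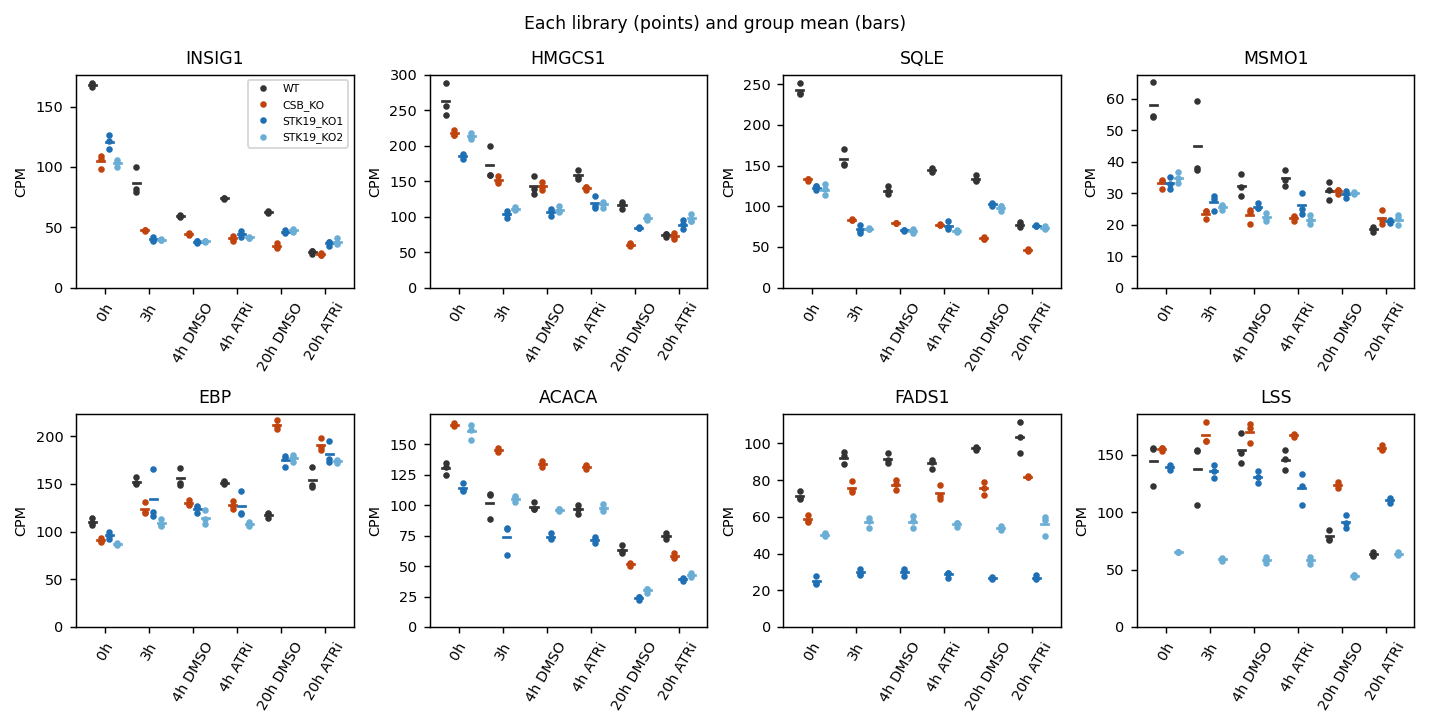
CPM (y axis, from 0) of 8 genes in each of the 72 libraries (points) and the mean of each group of 3 libraries (bars), by condition (x axis) and line (colour). INSIG1 and HMGCS1 fell in every line, EBP at 20 h with DMSO was highest in CSB_KO, and LSS at 0 h was lowest in STK19_KO2.

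Whether the 20 h change itself differed between lines was tested by subtracting the WT change from that of CSB_KO and from the mean of the STK19 lines. In CSB_KO 24 of 31 genes differed, 9 lower and 15 higher (background 36.3% and 30.9%). In the STK19 lines 22 differed, 8 lower and 14 higher (background 32.6% and 22.8%). The median difference was 0.02 and 0.05, with genes called in both directions. The shares higher, 48.4% and 45.2%, were above the background, and the shares lower, 29% and 25.8%, were below it. By role, the medians in CSB_KO and the STK19 lines were 0.65 and 0.23 for mevalonate steps and 0.54 and 0.31 for sterol steps. They were 0.02 and -0.35 for fatty acid synthesis, -0.2 and -0.02 for the SREBP system and -0.69 and -0.19 for sterol transport. The change of ELOVL6 was below that in WT, at a difference of -1.73 ± 0.12 in CSB_KO and -0.47 ± 0.10 in the STK19 lines, and that of HSD17B7 at -1.40 ± 0.12 and -0.61 ± 0.10. For ACACA the difference was -1.30 ± 0.08 in the STK19 lines and -0.66 ± 0.09 in CSB_KO. Differences above 0 were found for EBP (1.13 ± 0.10 in CSB_KO, 0.85 ± 0.08 in the STK19 lines), IDI1 (1.08 ± 0.12, 0.79 ± 0.10) and FASN (1.01 ± 0.21, 0.61 ± 0.18). The largest adjusted p among these 12 values was 0.00289 (edgeR). SQLE differed in opposite directions, at -0.27 in CSB_KO and 0.58 in the STK19 lines, and INSIG1 by -0.18 and 0.18. The INSIG1 change itself was -1.38 in STK19_KO1 and -1.12 in STK19_KO2, beside -1.43 in WT. Neither STK19 line was tested against WT alone for this change. The INSIG1 call in CSB_KO was lost without any 1 of 8 of its 12 libraries, all but WT 0 h replicates 1 and 2, CSB_KO 0 h replicate 3 and CSB_KO 20 h DMSO replicate 1 (difference -0.18 to -0.13). SREBF2 differed in CSB_KO (0.66), and SREBF1 and SCAP were not called in either test.

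The levels that resulted at 20 h with DMSO were 15 lower and 12 higher (background 39.7% and 38.4%) than WT in CSB_KO, 16 lower and 8 higher (background 36.6% and 32.4%) for STK19_KO1 and 17 lower and 6 higher (background 37.4% and 31.7%) for STK19_KO2. With ATRi at 20 h they were 10 lower and 13 higher (background 38.7% and 40.3%) in CSB_KO, 12 lower and 13 higher (background 35.1% and 33%) for STK19_KO1 and 14 lower and 9 higher (background 35.5% and 32.2%) for STK19_KO2. INSIG1 at 20 h with DMSO was below WT, at -0.86, -0.43 and -0.40 in CSB_KO, STK19_KO1 and STK19_KO2. With ATRi the values were -0.11 in CSB_KO, which was not called, and 0.32 and 0.36 in STK19_KO1 and STK19_KO2.

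UV lesions block elongation, so genes of long span are a known point of comparison, and the values are given by genomic span. At 3 h the rank correlation between span and log2 fold change across the 31 genes, which share their libraries, was -0.52 in WT, -0.547 in CSB_KO, -0.604 for STK19_KO1 and -0.577 for STK19_KO2. At 20 h it was -0.263, -0.467, -0.426 and -0.358. All 4519 tested genes under 15 kb had medians at 3 h of 0.37, 0.37, 0.38 and 0.33 in the same order of lines. The 7 of the 31 genes of that length had 0.42, 0.49, 0.46 and 0.32. All tested genes over 100 kb had medians at 3 h of -0.41, -0.3, -0.56 and -0.5, so span went with the change across all genes too. ACACA (321.8 kb) and ELOVL6 (153.4 kb) were the only 2 of the 31 longer than 100 kb, and all 3115 tested genes of that length had medians at 20 h of -0.41 in WT, -1.21 in CSB_KO, -0.89 for STK19_KO1 and -0.99 for STK19_KO2. The 17 genes of 15 to 50 kb had medians of -0.38, -0.21, -0.32 and -0.21 in WT, CSB_KO, STK19_KO1 and STK19_KO2 at 20 h, where all 5130 tested genes of that length had 0.12, 0.18, 0.15 and 0.17. INSIG1, at 12.5 kb, fell, while the 4519 tested genes under 15 kb had medians at 20 h of 0.21 in WT, 0.69 in CSB_KO, 0.31 for STK19_KO1 and 0.37 for STK19_KO2. EBP spans 6.92 kb. The part of span in these changes was not tested.

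**Figure D4:**
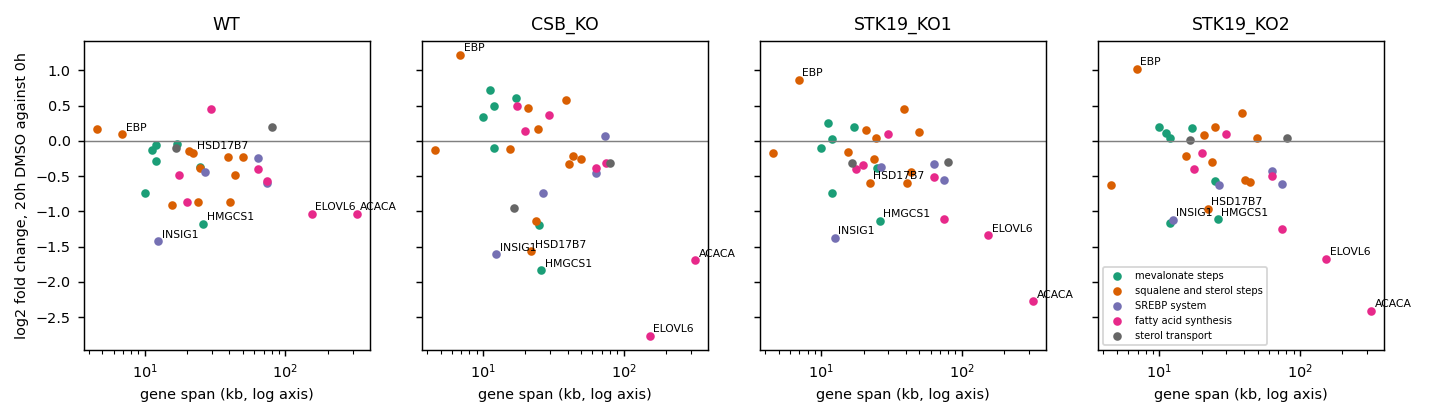
Log2 fold change at 20 h with DMSO against 0 h (y axis) of each of the 31 genes by genomic span in kb (log x axis), 1 panel per line and colour by role. ACACA and ELOVL6, the longest, are among the lowest 3 points in each edited line, while INSIG1 and HMGCS1 lie low among shorter genes.

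ATRi was compared with DMSO in the same line at the same labelled time. At 4 h few of the 31 genes were called. WT had 0 lower and 2 higher (background 0.595% and 1.95%), CSB_KO 0 lower and 0 higher (background 0.252% and 2.64%), STK19_KO1 0 lower and 1 higher (background 0.123% and 0.763%) and STK19_KO2 0 lower and 0 higher (background 0.0259% and 0.187%). At an unadjusted p under 0.05, 4, 3, 4 and 1 genes passed in edgeR, and DESeq2 called 2, 0, 1 and 0. In WT INSIG1 was higher with ATRi, at 74.5, 73.3 and 74.04 against 59.4, 59.8 and 58.6 CPM, which is 0.32 ± 0.06 on the log2 scale (edgeR, adjusted p = 0.000112), and SQLE likewise at 144, 147 and 142 against 125, 118 and 115 CPM and 0.28 ± 0.04 (adjusted p = 3.41e-05). The libraries did not overlap for either gene, and both calls were lost in a fit of those groups alone (edgeR, adjusted p = 0.0623 and 0.0848). In CSB_KO a fit of its 4 h groups alone called 5 genes lower where none was called in the fit of all groups: -0.17 for SCAP, -0.12 for DHCR7 and -0.09, -0.09 and -0.09 for FDPS, SREBF2 and ACLY on the log2 scale. With the libraries that lay apart left out, WT had 6 genes called, 5 higher and 1 lower. No share of all tested genes stands beside the counts of these refits. INSIG1 was also called in STK19_KO1 (0.23), a call lost without 4 h DMSO replicate 2 or 3 or ATRi replicate 1 or 2 (log2 fold change 0.19 to 0.24). SREBF1, SREBF2 and SCAP were not called in any line.

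At 20 h 26 of the 31 genes were called with ATRi in WT, and the counts in the edited lines were near the background. WT had 16 lower and 10 higher (background 33.7% and 30.1%), CSB_KO had 4 lower and 6 higher (background 17.4% and 14%), STK19_KO1 had 9 lower and 10 higher (background 30% and 31.4%) and STK19_KO2 had 8 lower and 10 higher (background 27.6% and 30.5%). In STK19_KO2 the split was 6 lower and 12 higher with RLE scaling, 9 and 6 with no filter and 6 and 13 in DESeq2. The median of the 31 genes was -0.20 in WT, 0.04 in CSB_KO, 0.05 for STK19_KO1 and -0.01 for STK19_KO2. SQLE, MSMO1 and INSIG1 were lower in all 4 lines, MVD and ACACA were higher in all 4, and FADS1 was not called in any. Again no share of all tested genes stands beside these counts over 4 lines. HMGCS1, LSS and TM7SF2 were lower in WT and higher in at least 1 edited line. The MVD calls were lost in CSB_KO without 20 h DMSO replicate 2 (log2 fold change 0.25), in STK19_KO1 without any 1 DMSO library or ATRi replicate 2 (0.15 to 0.23), and in STK19_KO2 without DMSO or ATRi replicate 2 or 3 (0.23 to 0.25).

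INSIG1 with ATRi at 20 h stood at 30.6, 28.3 and 30.1 CPM in WT, 28.8, 27.1 and 26.8 in CSB_KO, 38.2, 34.8 and 37.8 for STK19_KO1 and 36.8, 41.1 and 36.2 for STK19_KO2, beside the DMSO values given above. The libraries did not overlap with those in DMSO in any line. The log2 fold change was -1.08 ± 0.06 in WT and -0.32 ± 0.06, -0.33 ± 0.06 and -0.32 ± 0.06 in CSB_KO, STK19_KO1 and STK19_KO2 (edgeR, largest adjusted p = 8.91e-06). SQLE in DMSO and ATRi was at 139, 130.4 and 132 and 74.3, 77.8 and 80.3 CPM in WT, and at 59.8, 61.9 and 60.01 and 46.8, 44.7 and 47.01 in CSB_KO. It was at 101, 103 and 104 and 76.2, 77.1 and 75.2 CPM in STK19_KO1, and 94.1, 101 and 100.1 and 73.5, 75.8 and 72.2 in STK19_KO2. Again no groups overlapped, at log2 fold changes of -0.79 ± 0.05, -0.39 ± 0.05, -0.43 ± 0.05 and -0.41 ± 0.05 (edgeR, largest adjusted p = 3.74e-10).

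MSMO1 in DMSO and ATRi was at 33.5, 27.8 and 31.1 and 19.3, 17.7 and 18.6 CPM in WT, and 29.8, 31.1 and 30.9 and 24.7, 20.3 and 21.4 in CSB_KO. In STK19_KO1 it was at 30.6, 28.5 and 30.2 and 21.5, 21.1 and 20.6, and in STK19_KO2 at 29.9, 30.3 and 29.9 and 22.1, 22.96 and 19.8. Its log2 fold changes were -0.73 ± 0.11, -0.48 ± 0.11, -0.50 ± 0.10 and -0.47 ± 0.10 (edgeR, largest adjusted p = 0.000242), with DMSO and ATRi libraries apart in every line. DHCR7, which makes cholesterol from its last precursor, rose in WT, STK19_KO1 and STK19_KO2. Its DMSO and ATRi libraries were at 84.2, 87.8 and 92.1 and 134, 146 and 140.1 CPM in WT, and 109, 127 and 125 and 124, 141 and 137 in CSB_KO. They were 133, 125 and 122 and 168, 159 and 158 in STK19_KO1, and 119.6, 119 and 114 and 163, 168 and 165 in STK19_KO2. Only the CSB_KO groups overlapped, and the log2 fold changes were 0.67 ± 0.07, 0.35 ± 0.07 and 0.50 ± 0.07 in WT and the STK19 lines (edgeR, largest adjusted p = 2.61e-05) and 0.16 ± 0.07 in CSB_KO without a call.

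ACACA, low at 20 h in DMSO, was higher with ATRi. Its ATRi libraries were at 71.9, 77.1 and 74.7 CPM in WT, 57.7, 60.4 and 56.4 in CSB_KO, 40.4, 37.4 and 39.5 for STK19_KO1 and 42.7, 41.4 and 43.9 for STK19_KO2. All lay above the DMSO libraries of their line, at log2 fold changes of 0.23 ± 0.06, 0.18 ± 0.07, 0.73 ± 0.07 and 0.50 ± 0.07 (edgeR, largest adjusted p = 0.0288). The CSB_KO call was lost without replicate 2 of either group (log2 fold change 0.15 to 0.17, edgeR). SREBF2 rose with ATRi in WT (0.34), STK19_KO1 (0.39) and STK19_KO2 (0.17), the last lost without STK19_KO2 20 h DMSO replicate 1 (log2 fold change 0.14), and was at 0.04 in CSB_KO. SREBF1 was called lower in WT (-0.29) and STK19_KO2 (-0.28). The WT call was lost without WT 20 h DMSO replicate 2 or ATRi replicate 3 (log2 fold change -0.26 to -0.24), and the STK19_KO2 call without any 1 library but DMSO replicate 1 (-0.29 to -0.25). SCAP was higher in WT alone among the calls, at 0.33.

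The ATRi effect at 20 h differed between lines when tested directly. Against WT, 17 of 31 genes differed in CSB_KO, 7 lower and 10 higher (background 26.9% and 24.7%), and 20 in the STK19 lines, 6 lower and 14 higher (background 20.1% and 20.7%). The shares in CSB_KO, 22.6% lower and 32.3% higher, were near the background. FADS2 fell with ATRi in WT from 76.97, 88.2 and 81.9 to 42.6, 45.6 and 42.9 CPM, while CSB_KO had 75.04, 83.1 and 79.2 and 87.5, 89.4 and 87.96 without a call, and its effect differed from WT by 1.07 ± 0.10 in CSB_KO and 0.70 ± 0.09 in the STK19 lines. HMGCS1 fell from 121, 111 and 117 to 75.8, 71.4 and 76.4 CPM in WT. In CSB_KO it rose from 63.4, 58.1 and 61.2 to 77.7, 71.4 and 69.2 CPM, and the differences from WT were 0.90 ± 0.09 and 0.68 ± 0.08. The same sign was found for STARD4, a carrier of sterol between membranes (0.86 ± 0.14 and 0.62 ± 0.12), INSIG1 (0.76 ± 0.08 and 0.76 ± 0.07), TM7SF2 (0.78 ± 0.14 and 0.82 ± 0.12) and LSS (0.65 ± 0.11 and 0.72 ± 0.10). The largest adjusted p among these 12 values was 1.29e-05 (edgeR). MVK and SCAP differed the other way, by -0.44 and -0.38 in CSB_KO and -0.47 and -0.37 in the STK19 lines. The SCAP calls were lost in CSB_KO without WT 20 h DMSO replicate 1, WT 20 h ATRi replicate 1 or CSB_KO 20 h ATRi replicate 1 (difference -0.33 to -0.28) and in the STK19 lines without WT 20 h ATRi replicate 1 (-0.28). SREBF2 differed in CSB_KO (-0.30), and SREBF1 was called in neither test.

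**Figure D5:**
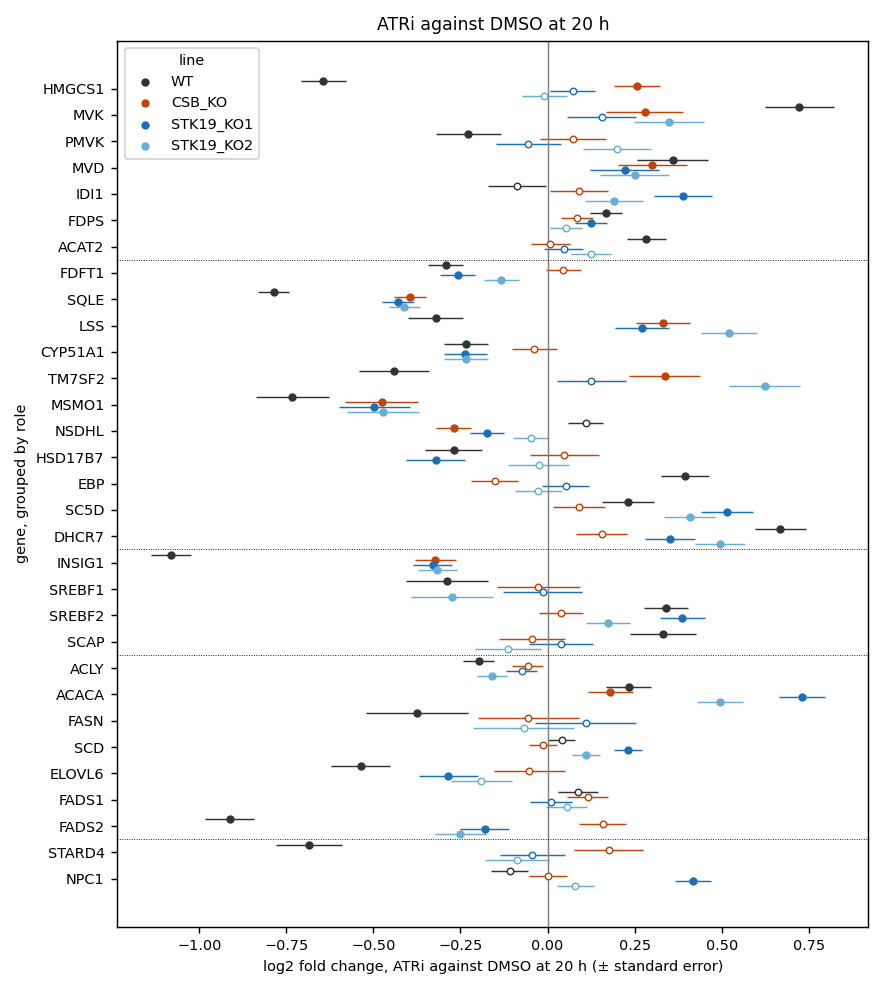
Log2 fold change of each of the 31 genes with ATRi against DMSO at 20 h in each line (x axis, bars are standard errors, n = 3 libraries per group), grouped by role. Filled points were called and open points were not. WT lies to the left of the edited lines for HMGCS1, INSIG1, FADS2 and STARD4, and to their right for MVK.

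Of 43 neighbouring genes of lipid metabolism that are not on the list, all were tested. Beside each count stand its share of the 43 and the share of all tested genes called in that direction. At 0 h 9 were lower and 9 higher in CSB_KO (20.9% and 20.9%, background 15.6% and 19.1%), 15 were lower and 9 higher in STK19_KO1 (34.9% and 20.9%, background 19.2% and 29.4%) and 13 were lower and 12 higher in STK19_KO2 (30.2% and 27.9%, background 20.7% and 26.5%). NR1H2, a sterol-sensing nuclear receptor, was higher by 0.79, 0.94 and 0.996, and ME1, the malic enzyme that supplies NADPH, was lower, at -0.35, -0.62 and -0.44. At 3 h 13 were lower and 20 higher in WT (30.2% and 46.5%, background 28.8% and 33.5%), 14 were lower and 16 higher in CSB_KO (32.6% and 37.2%, background 29.3% and 32%), 15 were lower and 12 higher in STK19_KO1 (34.9% and 27.9%, background 30.6% and 29.9%) and 14 were lower and 12 higher in STK19_KO2 (32.6% and 27.9%, background 28.5% and 29.1%). INSIG2, the second INSIG protein, fell at 3 h, at -1.36, -1.32, -0.90 and -0.60. At 4 h with DMSO 18 were lower and 15 higher in WT (41.9% and 34.9%, background 31.2% and 34.9%), 16 were lower and 17 higher in CSB_KO (37.2% and 39.5%, background 30.2% and 33.5%), 14 were lower and 11 higher in STK19_KO1 (32.6% and 25.6%, background 29.9% and 27.8%) and 16 were lower and 12 higher in STK19_KO2 (37.2% and 27.9%, background 29.7% and 31.6%). At 20 h with DMSO 15 were lower and 12 higher in WT (34.9% and 27.9%, background 25.4% and 29.9%), 22 were lower and 12 higher in CSB_KO (51.2% and 27.9%, background 40.5% and 38.3%), 19 were lower and 14 higher in STK19_KO1 (44.2% and 32.6%, background 37% and 32%) and 20 were lower and 14 higher in STK19_KO2 (46.5% and 32.6%, background 37.8% and 33.8%). MBTPS1, which cleaves SREBP first, fell at 20 h in every line (-0.41, -1.15, -0.63 and -0.74). NPC2, which works with NPC1 in lysosomes, rose at 20 h, at 0.20, 1.28, 0.62 and 0.71. With ATRi against DMSO at 20 h 21 were lower and 14 higher in WT (48.8% and 32.6%, background 33.7% and 30.1%), 11 were lower and 5 higher in CSB_KO (25.6% and 11.6%, background 17.4% and 14%), 14 were lower and 19 higher in STK19_KO1 (32.6% and 44.2%, background 30% and 31.4%) and 11 were lower and 17 higher in STK19_KO2 (25.6% and 39.5%, background 27.6% and 30.5%). Many of these shares lay near the background. With ATRi at 20 h TMEM97, a regulator of NPC1, fell, at -0.90, -0.93, -1 and -0.89, and CPT1A, the entry of fatty acids to mitochondrial oxidation, at -1.93, -0.31, -0.72 and -0.82. Each of these named differences was called in edgeR at adjusted p under 0.05.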

How the data were processed

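The authors deposited 1 table of unnormalised counts per gene for 72 libraries. These are taken as estimated counts, since RSEM is named, and the deposited values were already whole numbers. STAR and RSEM are named in the submitters' processing notes with GRCh38, per the labels, and no source used here says how strand or multiply mapped reads were counted. Library totals of 36.5 M to 212.9 M counts left at least 124 counts for each of the 31 genes in each library.

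Counts were fitted in edgeR 4.0.16 (R 4.3.3, limma 3.58.1) with the robust quasi-likelihood test, TMM scaling and 1 coefficient per group over all 24 groups. The low-count filter (filterByExpr) used 10 as its count minimum and 15 as its total, and p-values were adjusted by Benjamini-Hochberg over 15470 genes in each comparison. CPM used TMM-scaled library sizes, so values are relative within a library and give no amount of transcript per cell. Exonic length and span came from the GENCODE annotation, and promoter sequence from RefSeq (GRCh38.p14). The statistics were tested on simulated counts.

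The 31 genes and the neighbouring gene lists were chosen with earlier results of these data known. Named in each set of comparisons were SREBF1, SREBF2, SCAP and INSIG1, up to 5 genes with the largest mean change called with the same sign in at least 3 comparisons (2 for the knockouts at 0 h), genes called against the direction of most, and up to 3 neighbouring genes each way. LSS, MVD, EBP and the genes named for a difference between lines beyond this were chosen after their values were seen. Alternatives were DESeq2 1.42.0, RLE scaling, no filter, a replicate block, fits of only the groups compared, an adjusted p under 0.01, a fold of at least 1.5, each library left out in turn, and, added after seeing the data, 5 libraries left out together. These 5 differed from both other libraries of their group by a chi-square per gene over 20.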

Additional observations from a re-analysis of the deposited data

Results flagged for a closer look

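The results below were marked because the same contrast differed between lines in a direct test in edgeR, at a difference of at least 1 on the log2 scale for a single gene. For the 20 h change in CSB_KO minus that in WT, the differences were 1.08 for IDI1, 1.13 for EBP and 1.01 for FASN. In the same test HSD17B7 differed by -1.40 and ELOVL6 by -1.73. ACACA differed by -1.30 between the STK19 lines and WT. The ATRi effect on FADS2 at 20 h differed by 1.07 between CSB_KO and WT. Of the 31 genes, 24 differed in their 20 h change in CSB_KO, 9 lower and 15 higher (background 36.3% and 30.9%), and 22 in the STK19 lines, 8 lower and 14 higher (background 32.6% and 22.8%). In their ATRi effect 17 differed in CSB_KO, 7 lower and 10 higher (background 26.9% and 24.7%), which is near the background, and 20 in the STK19 lines, 6 lower and 14 higher (background 20.1% and 20.7%).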

How the results depend on the processing

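No called gene changed sign under any of these alternatives, and no total of called genes moved by more than 1.5 times under DESeq2, RLE scaling, no filter or the replicate block. Of the counts by direction under these, those higher at 20 h in STK19_KO1 went from 4 to 7 in DESeq2, 7 with RLE scaling and 8 with no filter, those higher with ATRi at 20 h in STK19_KO2 from 10 to 6 with no filter, and those higher at 0 h in CSB_KO from 1 to 2 with the replicate block. Asking for a fold of at least 1.5 left 5, 8 and 9 genes in CSB_KO, STK19_KO1 and STK19_KO2 at 0 h, of which 5, 6 and 8 were lower. In WT, CSB_KO, STK19_KO1 and STK19_KO2 it left 4, 5, 7 and 6 at 3 h, 6, 6, 6 and 7 at 4 h, and 10, 12, 9 and 11 at 20 h. For ATRi it left 0 in WT and 0 in STK19_KO1 at 4 h, and 8, 0, 1 and 1 at 20 h. Between edited lines and WT at 20 h it left 11, 9 and 10 with DMSO and 9, 10 and 11 with ATRi. For differences between lines it left 9 for the 20 h change in the STK19 lines and 6 and 6 for the ATRi effect in CSB_KO and the STK19 lines. These counts pool both directions. The share of all tested genes passing this fold was not set beside them, so they have no background. A fit of only the groups compared gave 11 at 3 h in WT, and for ATRi at 4 h it gave 0 in WT, 5 in CSB_KO and 0 in STK19_KO1. In such fits 5 in place of 12 were higher at 3 h in WT, and at 20 h 1, 9 and 11 in place of 2, 4 and 5 in WT, STK19_KO1 and STK19_KO2. An adjusted p under 0.01 left 0 for ATRi at 4 h in STK19_KO1, and, among genes higher, 3 of 5 at 20 h in STK19_KO2 and, with ATRi at 20 h, 3 of 6 in CSB_KO and 6 of 10 in STK19_KO2. Without the libraries that lay apart, ATRi at 4 h in WT gave 6, and 2 in place of 1 were higher at 0 h in CSB_KO. With each library left out in turn the count for ATRi at 4 h in STK19_KO1 was 0 to 1. Of 628 single calls on the 31 genes, 88 were lost without at least 1 library, and none of these exceeded 0.45 in size on the log2 scale. The counts under these alternatives have no share of all tested genes beside them, so they do not show whether other genes changed alike. The cause of these changes was not tested.

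The labels number replicates 1 to 3 in each group. Same-numbered libraries of different groups had a median correlation of deviations of 0.031 (-0.198 to 0.59 over 828 pairs). Of these pairs 22.3% exceeded 0.1, and since not all did the numbers were not treated as pairs. As a hint from the data towards some pairing, 36 of 72 libraries matched best to one of their own number, where 24 would if the number carried nothing (23 of 69 candidates for each). With the replicate block 23, 24 and 26 genes were called at 0 h in CSB_KO, STK19_KO1 and STK19_KO2.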

Other observations

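Some genes of the list that the naming rule did not bring forward were chosen here after their values were seen. PMVK, the phosphomevalonate kinase, was lower at 20 h with DMSO in the STK19 lines, at log2 fold changes of -0.74 ± 0.09 and -1.16 ± 0.10, while WT was at -0.06 ± 0.09 and CSB_KO at -0.10 ± 0.09 without a call. Its 20 h change in the STK19 lines differed from that in WT by -0.89 ± 0.11 (edgeR, adjusted p = 9.08e-10). SCD went the other way in CSB_KO, at 0.49 ± 0.04 against -0.49 ± 0.04 in WT, a difference of 0.97 ± 0.06 (edgeR, adjusted p = 4.91e-23). STARD4 was lower at 20 h in CSB_KO and, at -0.32 ± 0.09, in STK19_KO1 (edgeR, adjusted p = 0.00217), and it was not called in WT (-0.10 ± 0.09) or STK19_KO2 (0.02 ± 0.09). In CSB_KO it had 41.9, 39.8 and 39.6 CPM at 0 h and 21.3, 20.4 and 20.8 at 20 h, and the change in CSB_KO differed from that in WT by -0.85 ± 0.13 (edgeR, adjusted p = 9.78e-08).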
